A study of Mus musculus with 8 samples.

Results

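The genes described here are 7 members of the cholesterol synthesis pathway that SREBP2 controls, *Srebf2*, *Insig1*, *Hmgcs1*, *Idi1*, *Fdps*, *Sqle* and *Cyp51*. They were chosen by symbol from the 13387 genes of the deposited count table, and all 7 were present and passed the filter on low counts. Cells make cholesterol from acetyl-CoA through mevalonate and squalene, and the early part of the route also supplies farnesyl and geranylgeranyl groups for protein prenylation. SREBP2 is a membrane-bound transcription factor that is carried to the Golgi by SCAP and cut free when sterols in the endoplasmic reticulum are low, and it then drives genes of cholesterol synthesis and LDL uptake. INSIG1 holds SCAP back when sterols are plentiful. Megakaryocytes (MKs), the marrow cells that shed platelets, build a large internal membrane system as they mature. None of the 7 genes acts in LDL uptake itself, so genes of that process are described below from a separate list.

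Bulk RNA-Seq was available for 4 libraries of MKs cultured alone, whose treatment is labelled None, and 4 libraries of MKs labelled as cultured with mesenchymal stem cells (MSCs). All cells carried the C57BL/6 genotype, came from bone marrow and were kept in culture for 18 hours, and the comparison asked how MSCs change the MK transcriptome. The MKs were enriched from flushed marrow with beads against CD41, whereas the MSCs were sorted as CD51 and CD140a positive cells without CD45, Ter119 or CD31. Several wells were pooled into each library. The labels describe the sequenced cells as MKs that had been separated from platelets, and the study's methods describe them as platelets. Mice were 8 to 12 weeks old and of both sexes, matched between groups, per the study's general methods, and the labels give no age or sex for a library. The legend for the RNA-Seq counts mice as replicates, whereas the labels tie no library to an animal or culture, and the p-values below measure the spread between these libraries.

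The libraries held 4939874 to 12523616 counts, and levels are given as CPM, the counts of a gene relative to the TMM-scaled size of its library. A level of 3 counts was 0.282 to 0.662 CPM, a limit that covers counting error only. Replicate 3 of the cocultures stood apart, since 1012 genes had no count there although each of the other libraries held 10 or more, and no other library lacked more than 4 genes in that way. The TMM factor of that replicate was 0.7645, against 0.918 to 1.118 in the other libraries, which raises its CPM relative to unscaled counts. The tests of the 7 genes and of the lists are therefore given with and without replicate 3 of the cocultures. The 12 MK and platelet markers summed to 1775 to 2158 CPM in MKs alone and 1655 to 2291 CPM in the cocultures. *Pf4*, the platelet chemokine, averaged 841 and 1070 CPM, and 0 of the 12 markers passed the test in edgeR, with 1 lower at an unadjusted p under 0.05 and 1 lower in DESeq2. Leaving out replicate 3 of the cocultures, 2 of the 12 were lower in edgeR, *Gata1* and *Gp6*, by log2 differences of -1.29 and -1.20. The cell make-up around the MKs differed between the groups. Neutrophil markers summed to 80350 to 81560 CPM in MKs alone and 4223 to 10000 CPM in the cocultures, with 8 of 8 lower and *S100a8*, a neutrophil granule protein, averaging 48460 and 4404 CPM. The 10 MSC markers summed to 14.8 to 19.5 CPM in MKs alone and 1660 to 4859 CPM in the cocultures. Of the 8 tested, 7 were higher, *Sparc*, a matrix protein, averaged 0.548 and 963 CPM, and *Lepr* and *Kitl* were at 0 in replicate 3 of the cocultures. Macrophage markers summed to 174 to 236 CPM and 1150 to 1565 CPM, with 9 of 10 higher, and *Csf1r*, the highest over both groups together, averaged 105 and 263 CPM. B cell markers summed to 850 to 898 CPM and 61.1 to 221 CPM, with 4 of 7 lower, and *Ms4a1* averaged 381 and 53.8 CPM. Erythroid markers summed to 24.05 to 32.9 CPM and 13.2 to 63.8 CPM, 0 of 3 tested were called in edgeR, with 1 lower at an unadjusted p under 0.05 and in DESeq2, and *Hbb-bs* averaged 10.01 and 15.2 CPM. The mean of *Hbb-bs* in the cocultures rested on replicate 3, since without it the log2 difference was -1.999 (adjusted p = 0.0007) and 3 of 4 erythroid markers tested were lower. In that fit 9 of 9 MSC and 10 of 10 macrophage markers were higher, and 8 of 8 neutrophil and 5 of 7 B cell markers were lower. *Gata1*, *Gp6*, *Lepr* and *Kitl* are named after their values were seen. In bulk RNA, fewer cells of a type and less RNA per cell cannot be told apart, and how far these cell types contribute to the levels of the 7 genes was not tested.

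The genes lie on 4 chromosomes of GRCm38 (GENCODE vM21), the build of the mm10 transcriptome that the authors used. *Srebf2* spans chr15:82147181-82205379 on the plus strand, *Insig1* chr5:28071363-28078662 on the plus strand, and *Hmgcs1* chr13:119690379-119708260 on the plus strand. *Idi1* spans chr13:8885501-8892451 and *Sqle* chr15:59315077-59331192, both on the plus strand, and *Fdps* spans chr3:89093588-89101959 and *Cyp51* chr5:4081145-4104746, both on the minus strand. The end of *Cyp51* overlaps *Akap9* on the opposite strand, and *Fdps* overlaps the gene Gm43738 on its own strand along most of its length. *Hmgcs1* and *Idi1* also overlap genes on the opposite strand, Gm48342 and Gm48574. Whether the counting used strand is not given in the sources used here, so reads at the opposite-strand overlaps are uncertain. Strand could not separate reads of *Fdps* from those of Gm43738, which has no row of its own in the counts. The start regions of *Hmgcs1*, *Insig1* and *Srebf2* are shown because SREBP2 is known to act on its targets through sterol regulatory elements close to the start, beside CCAAT and GC boxes. The sequences come from RefSeq on GRCm38.p6 and run 5′ to 3′ on the strand of the gene, at chr13:119690101-119690350, chr5:28071162-28071362 and chr15:82147019-82147180, ending before the more upstream of the RefSeq and GENCODE starts. Capitals mark matches to TCACNCCAC (a sterol regulatory element), CCAAT or GGGCGG (a GC box) on either strand.
Hmgcs1: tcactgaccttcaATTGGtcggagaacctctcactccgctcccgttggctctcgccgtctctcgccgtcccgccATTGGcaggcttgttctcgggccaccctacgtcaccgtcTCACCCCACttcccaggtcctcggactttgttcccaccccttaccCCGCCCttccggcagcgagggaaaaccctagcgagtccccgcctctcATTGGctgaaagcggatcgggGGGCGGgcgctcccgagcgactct
Insig1: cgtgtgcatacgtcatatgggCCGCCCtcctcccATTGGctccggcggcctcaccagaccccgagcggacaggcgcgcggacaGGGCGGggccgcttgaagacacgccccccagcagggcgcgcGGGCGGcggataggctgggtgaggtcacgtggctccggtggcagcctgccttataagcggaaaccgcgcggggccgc
Srebf2: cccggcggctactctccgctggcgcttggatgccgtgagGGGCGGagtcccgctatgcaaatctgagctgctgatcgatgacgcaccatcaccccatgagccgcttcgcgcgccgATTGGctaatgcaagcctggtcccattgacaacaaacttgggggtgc

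RefSeq start regions were matched for 5 of the 7 genes, the 3 printed above and those of *Idi1* and *Cyp51*. In the 250 bases before the RefSeq start, TCACNCCAC was found in 1 of the 5, *Hmgcs1*, from 137 to 129 bases before the start, and 1.05% of 32851 promoters of that length held it. CCAAT was found in 5 of 5, against 33.8% of all promoters, with 3 matches in *Hmgcs1*. GGGCGG was also found in 5 of 5, against 32.7% of all promoters, with 4 matches in *Srebf2* and 3 in *Insig1*. Some matches lay between the GENCODE start and the RefSeq start, and so not upstream of both. They were the CCAAT matches of *Cyp51* and *Idi1*, the GC box of *Idi1* and all GC boxes of *Srebf2* except the match printed above. The 3 motifs share no overlapping letters in the printed sequences, and a match describes the letters alone. Only exact matches were counted, so the lack of TCACNCCAC does not mean that a start region holds no sterol regulatory element.

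Of the 7 genes, only *Fdps*, the farnesyl diphosphate synthase at which the sterol and prenylation branches part, rose in the cocultures, 2.13-fold. None fell. A gene was called when edgeR's quasi-likelihood test gave an adjusted p (Benjamini-Hochberg over 11722 genes) no higher than 0.05, the fold change was 2 or more, and either group averaged 1 CPM or more. Under these rules 13.2% of all genes tested were called higher and 7.31% lower, and the 1 of 7 higher was close to that background. DESeq2 also called 1 of the 7 higher and 0 lower, where it called 15.8% of all genes higher and 10.7% lower. At an unadjusted p under 0.05 edgeR likewise had 1 higher and 0 lower, against 21.7% and 14.5% of all genes. The fitted log2 difference was positive for 6 of the 7, with a median of 0.28 against 0.03 over all genes tested. The groups did not overlap for 1 of the 7, whereas 40.3% of all genes tested did not overlap. Without replicate 3 of the cocultures, 0 of the 7 reached a 2-fold change in edgeR, where 20.6% of 12267 genes were called higher and 15.4% lower. *Fdps*, *Sqle* and *Cyp51* then had an adjusted p of at most 0.05 at smaller folds, a share of 3 of 7 where 29.2% of all genes were higher at that p without a fold limit. At an unadjusted p under 0.05, that comparison held *Insig1* and *Hmgcs1* as well, against 31.6% of all genes higher at that p.

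**Figure D1:**
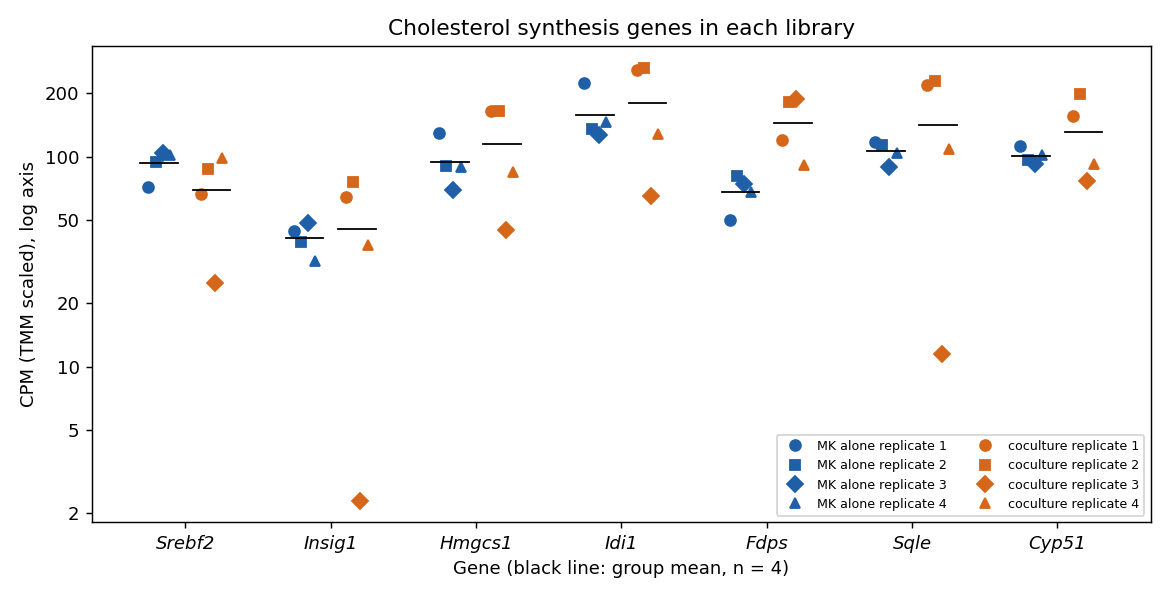
Levels of the 7 genes in each library, in CPM on a log axis, with a blue point per library of MKs alone, an orange point per coculture, a symbol shape per replicate number and a black line at each group mean (n = 4). Replicate 3 of the cocultures (orange diamonds) is the lowest of the 8 libraries for 6 genes and the highest for Fdps, at 187 CPM.

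The 2 regulators showed no change that passed the test. *Srebf2*, which encodes SREBP2, was measured at 71.7, 94.5, 104 and 102 CPM in MKs alone and at 66.2, 87.5, 25.1 and 98.35 CPM in cocultures 1 to 4. The coculture values lay within or just below the range of MKs alone except in replicate 3, the lowest of the 8 libraries. The log2 difference was -0.43 (SE 0.39, 95% interval -1.30 to 0.45, adjusted p = 0.467), and it was -0.17 (SE 0.19, adjusted p = 0.461) without replicate 3 of the cocultures. *Insig1*, the sterol-dependent anchor of SCAP and itself a target of SREBP2, was measured at 44.4, 39.2, 48.35 and 31.7 CPM in MKs alone and at 64.55, 76.1, 2.30 and 37.8 CPM in the cocultures. Cocultures 1 and 2 were above all MKs alone, replicate 4 was within their range, and replicate 3 held only 22 counts of *Insig1* (95% Poisson interval 1.44 to 3.48 CPM). Its log2 difference was 0.14 (SE 0.76, 95% interval -1.58 to 1.87, adjusted p = 0.916), an interval that reaches past 2-fold in both directions, and its sign turned without coculture replicate 1 (-0.07) or 2 (-0.20). *Insig1* differed by 0.52 (SE 0.23, adjusted p = 0.0649) when replicate 3 of the cocultures was left out. The ratio of *Insig1* to *Srebf2* counts was 0.310 to 0.619 in MKs alone, 0.976 and 0.869 in cocultures 1 and 2, 0.385 in replicate 4 and 0.0917 in replicate 3.

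*Hmgcs1* and *Idi1* act early in the pathway. *Hmgcs1*, the cytosolic HMG-CoA synthase, was measured at 130, 90.1, 69.6 and 89.6 CPM in MKs alone and at 164.5, 165, 44.7 and 85.0 CPM in the cocultures. *Idi1*, the isomerase that supplies dimethylallyl diphosphate, was measured at 226, 136, 126 and 146 CPM in MKs alone and at 259.5, 266, 64.8 and 128 CPM in the cocultures. For both genes cocultures 1 and 2 were the highest libraries, replicate 4 lay inside the range of MKs alone, and replicate 3 was the lowest. The log2 difference was 0.28 (SE 0.41, 95% interval -0.66 to 1.21, adjusted p = 0.669) for *Hmgcs1*. It was 0.18 (SE 0.43, 95% interval -0.80 to 1.16, adjusted p = 0.802) for *Idi1*, whose sign turned without coculture replicate 1 (-0.046) or 2 (-0.030). Leaving out replicate 3 of the cocultures, these became 0.53 (SE 0.24, adjusted p = 0.0729) and 0.44 (SE 0.25, adjusted p = 0.142), which also missed the threshold. The 2 genes kept close proportions, with 1.45 to 1.81 *Idi1* counts for each *Hmgcs1* count in the 8 libraries, replicate 3 of the cocultures included.

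*Fdps* was measured at 49.9, 80.9, 74.4 and 67.7 CPM in MKs alone (68.2 ± 13.4, SD, n = 4) and at 120, 182, 187 and 91.6 CPM in the cocultures (145 ± 47.1, SD, n = 4). All 4 cocultures were above all 4 libraries of MKs alone. The log2 difference was 1.09 (SE 0.28, 95% interval 0.45 to 1.73, adjusted p = 0.0242). After TMM scaling *Fdps* was highest in replicate 3 of the cocultures, by a small margin over replicate 2. Without replicate 3 of the cocultures the rise was 1.89-fold with an adjusted p of 0.00249, and therefore fell short of the 2-fold limit. The call was also lost without MK-alone replicate 1, 2, 3 or 4, at adjusted p values of 0.0737, 0.0519, 0.0637 and 0.0766, and without coculture replicate 2, at 0.0677. In a test against a 2-fold change (glmTreat) the adjusted p of *Fdps* was 0.558. How reads in the overlap of *Fdps* with Gm43738 were assigned is not known. The neighbouring step was measured as well, since *Fdft1*, the squalene synthase that uses the product of FDPS, held 24.5, 37.6, 35.4 and 21.0 CPM in MKs alone and 55.45, 80.0, 141 and 49.3 CPM in the cocultures. As with *Fdps*, the *Fdft1* groups did not overlap and replicate 3 was the highest coculture. *Fdft1* differed by 1.46 on the log2 scale with all libraries and by 1.03 (adjusted p = 0.00149) without replicate 3, and it was chosen for this comparison after its values were seen.

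**Figure D2:**
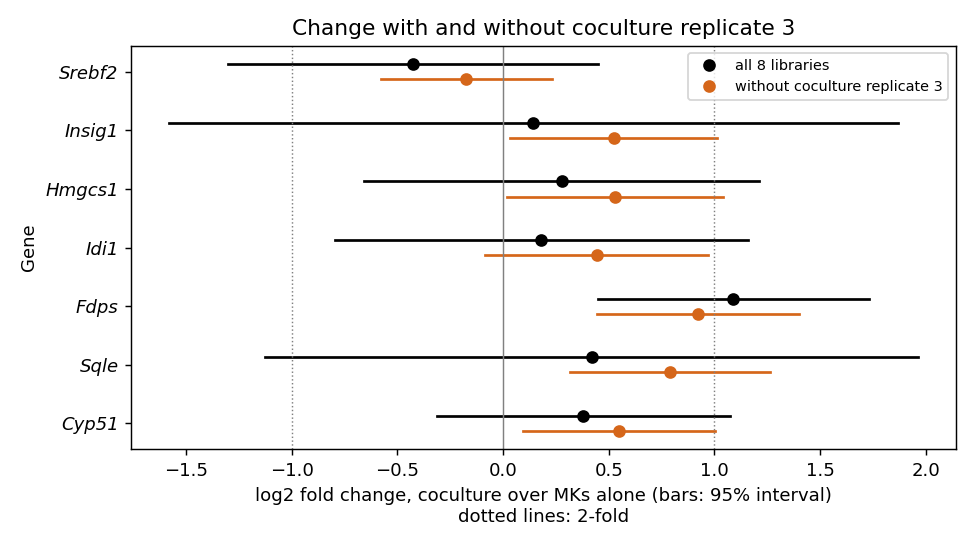
Log2 difference of cocultures over MKs alone for the 7 genes, with bars for the 95% interval, from all 8 libraries (black) and without coculture replicate 3 (orange). The intervals narrow without that library, and those of Fdps, Sqle, Cyp51, Hmgcs1 and Insig1 then lie above 0, before adjustment over all genes.

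*Sqle* and *Cyp51* act on squalene and lanosterol. *Sqle*, the squalene epoxidase, was measured at 117, 114, 89.0 and 104 CPM in MKs alone and at 219, 229, 11.5 and 108 CPM in the cocultures. Cocultures 1 and 2 held about the same level as each other and were above all MKs alone, whereas replicate 3 fell below them all with 110 counts (95% Poisson interval 9.46 to 13.9 CPM). The log2 difference of *Sqle* was 0.42 (SE 0.68, 95% interval -1.12 to 1.96, adjusted p = 0.699). With that library left out it was 0.79 (SE 0.22, adjusted p = 0.00681), a 1.73-fold difference. *Cyp51*, the lanosterol demethylase, was measured at 112, 96.6, 92.3 and 102 CPM in MKs alone and at 155, 199, 77.0 and 92.6 CPM in the cocultures. Relative to its mean, its spread was the smallest of the 7 genes in MKs alone (100.7 ± 8.57, SD, n = 4, against 131 ± 56.7 in the cocultures). The log2 difference of *Cyp51* was 0.38 (SE 0.30, 95% interval -0.31 to 1.07, adjusted p = 0.411), and 0.55 (SE 0.21, adjusted p = 0.0396) without replicate 3 of the cocultures, a 1.46-fold difference.

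The cocultures did not act as a uniform group. Cocultures 1 and 2 were above every library of MKs alone in 6 of the 7 genes, a pattern that 31.3% of all genes tested showed. Coculture replicate 4 lay within the range of MKs alone in 6 of the 7, all but *Fdps*, against 25.1% of all genes. Replicate 3 was below every library of MKs alone in 6 of the 7, against 51.5% of all genes. A combined pattern, above all MKs alone in cocultures 1 and 2 and below them all in replicate 3, was held by 5 of the 7. They were *Insig1*, *Hmgcs1*, *Idi1*, *Sqle* and *Cyp51*, and 8.45% of all genes tested showed this pattern, which was chosen after the values were seen. The 7 genes together summed to 751, 651, 604 and 643.5 CPM in MKs alone and to 1049, 1205, 413 and 642 CPM in the cocultures. The sum in cocultures 1 and 2 was thus above all MKs alone, that in replicate 4 was within their range, and that in replicate 3 was below it.

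The make-up of this sum shifted in replicate 3 of the cocultures. *Fdps* supplied 6.64% to 12.4% of the summed counts of the 7 genes in MKs alone, and 11.45%, 15.1%, 45.4% and 14.3% in cocultures 1 to 4. *Sqle* supplied 14.7% to 20.8% in the other 7 libraries and 2.79% in replicate 3. *Insig1* supplied 4.93% to 8.01% in the other 7 and 0.558% in replicate 3. There were 16.3 *Fdps* counts for each *Sqle* count in that library, compared with 0.426 to 0.845 in the other 7. *Cyp51* supplied a steadier share, 14.4% to 16.5% in the other 7 libraries and 18.7% in replicate 3. The 7 transcripts were thus in a different balance in replicate 3.

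**Figure D3:**
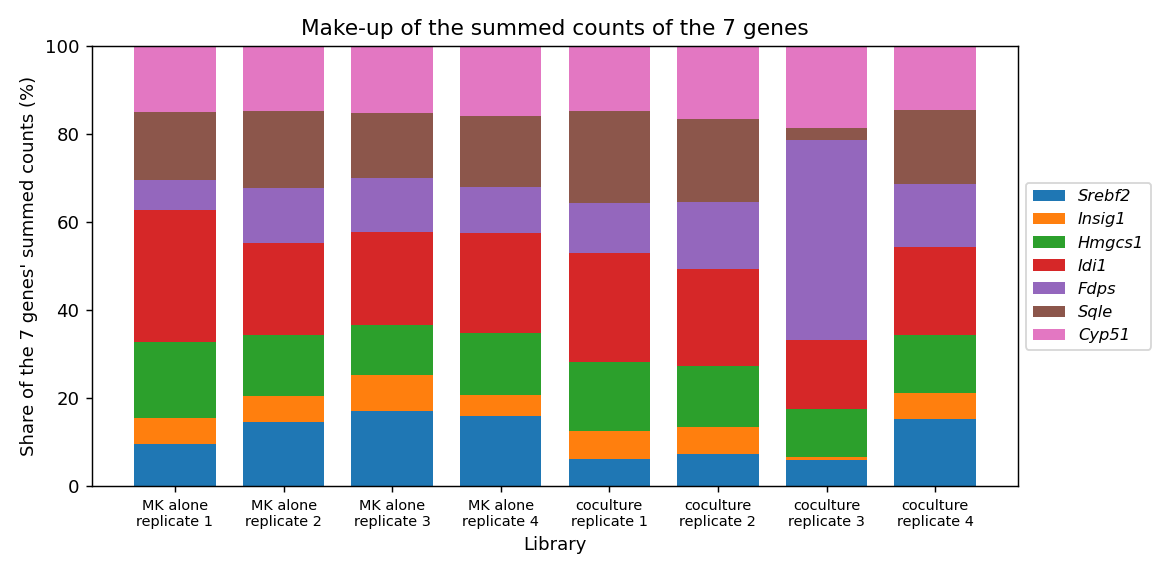
Stacked bars of the share of each gene in the summed counts of the 7 genes, in percent, for each of the 8 libraries. Fdps takes 45.4% in coculture replicate 3 and at most 15.1% in any other library.

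Levels of different genes were compared per kilobase of exon, counting every base that is exon in any annotated transcript of a gene. The lengths of the transcripts expressed here were not measured. Where these are shorter, as may differ between genes, the level is understated, so the order below holds for this measure only. *Idi1* had the highest level by it in MKs alone, 45.2 ± 12.98 CPM per kilobase (SD, n = 4). Its lowest library, at 36.0, was above the highest of any other member, 28.3 for *Hmgcs1*. *Cyp51* (22.8 ± 1.94), *Hmgcs1* (20.6 ± 5.51) and *Sqle* (19.1 ± 2.27) followed, and their ranges overlapped. *Fdps* (16.2 ± 3.18, over 4208 exonic bases), *Insig1* (13.2 ± 2.32) and *Srebf2* (12.96 ± 2.07) were lowest by this measure. Below *Idi1*, each gene's range overlapped that of the next in this order. In the cocultures *Idi1* again had the highest mean level, 51.2 CPM per kilobase, and *Fdps*, at 34.5 CPM per kilobase, came next. That place rested on replicate 3, since in the other cocultures *Fdps* averaged 31.2, behind *Idi1* at 62.1, *Cyp51* at 33.8 and *Sqle* at 33.4 CPM per kilobase.

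Across the 8 libraries the members varied together in subsets, described here by Pearson's r of log2(CPM + 1), with libraries that share group and depth. *Hmgcs1* and *Idi1* were the closest pair (r = 0.99, and 0.98 without replicate 3 of the cocultures). *Insig1* and *Sqle* had r = 0.98, and 0.84 without that library. Other pairs turned with it. *Fdps* and *Sqle* had r = -0.27 over 8 libraries and 0.80 over the other 7, and *Srebf2* and *Insig1* had r = 0.85 and -0.52. Genes outside all lists whose levels were most like the mean of the 7 included *Usp47*, *Hsp90b1*, *Tmem19* and *Dnajc10*. Their r was from 0.97 to 0.99 over 8 libraries, among 8884 genes compared. Each of them was lowest in replicate 3 of the cocultures, and their likeness without that library was not tested. *Hsp90b1*, the endoplasmic reticulum chaperone GRP94, was measured at 674, 616.5, 532 and 529 CPM in MKs alone and at 860, 991, 301 and 634 CPM in the cocultures. It was therefore also highest in cocultures 1 and 2 and lowest in replicate 3, and 1.42% of the genes compared reached an r of at least 0.9.

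The other enzymes of cholesterol synthesis were described from a list of 16, all of which were tested. Of these 4 rose, 1 fell and 11 did not pass, with a median log2 difference of 0.43 against 0.03 over all genes. Among all genes tested, 13.2% were called higher and 7.31% lower. Without replicate 3 of the cocultures these shares were 20.6% and 15.4%. *Mvk*, mevalonate kinase, averaged 4.87 and 19.3 CPM, a log2 difference of 1.98 (SE 0.50, adjusted p = 0.0206). *Lss*, the lanosterol synthase that closes the sterol rings, was measured at 13.5, 17.6, 15.1 and 13.2 CPM in MKs alone and at 39.4, 52.2, 104 and 29.8 CPM in the cocultures. The *Lss* groups did not overlap, and the log2 difference was 1.92 (SE 0.42, adjusted p = 0.0116). The remaining genes that rose, named after their values were seen, were *Acat2* and *Fdft1*, with log2 differences of 1.21 and 1.46. *Lbr*, the lamin B receptor, which is also a sterol reductase, fell from 1052, 867, 796.5 and 805 CPM in MKs alone to 257.5, 207, 48.3 and 182 CPM in the cocultures. Its log2 difference was -2.34 (SE 0.45, adjusted p = 0.00595), and the lamin B receptor is known to be abundant in neutrophils, whose marker sum fell from at least 80350 CPM to at most 10000 CPM in the same libraries. The part of neutrophils in this fall was not tested. When replicate 3 of the cocultures was left out 5 rose and 1 fell, with log2 differences of 1.59 for *Mvk*, 1.42 for *Lss*, 1.07 for *Acat2*, 1.03 for *Fdft1* and -2.05 for *Lbr*. The added gene, *Hsd17b7*, named after its values were seen, a sterol keto-reductase, was at 0 in that library and at 32.2, 46.1 and 17.0 CPM in the other cocultures, against 3.81 to 8.95 CPM in MKs alone (log2 difference 2.10, adjusted p = 0.255 with all libraries, and 2.52, adjusted p = 1.21e-05, without replicate 3). The count of those that rose dropped to 1 without any of the 4 libraries of MKs alone or without coculture replicate 2.

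SREBP processing and sterol sensing gave no called gene. Of 10 tested in this list, 0 rose and 0 fell in edgeR, and 0 had an unadjusted p under 0.05. DESeq2 also called 0, and the median log2 difference was 0.25. Among all genes, edgeR called 13.2% higher and 7.31% lower, and DESeq2 called 15.8% and 10.7%. *Srebf1*, the source of SREBP1, averaged 20.9 and 32.9 CPM (adjusted p = 0.428), and *Scap*, the escort of both SREBPs, averaged 31.2 and 43.5 CPM (adjusted p = 0.259). With replicate 3 of the cocultures left out, 1 of the 10 was called, *Pgrmc1*, a heme-binding membrane protein that associates with INSIG1, at a log2 difference of 1.36 (SE 0.21, adjusted p = 4.52e-05). With all libraries *Pgrmc1* averaged 219 and 456 CPM (adjusted p = 0.139). These 3 genes were named after their values were seen.

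For LDL uptake and the release of its cholesterol from endosomes, 3 of 12 genes tested rose and 0 fell, with a median log2 difference of 0.54. At an unadjusted p under 0.05, 0 were also lower, against 14.5% of all genes, and in DESeq2 0, against 10.7%. Among all genes, edgeR called 13.2% higher and 7.31% lower, or 20.6% and 15.4% without replicate 3 of the cocultures. *Lrp1*, a lipoprotein and protease scavenger receptor, was measured at 7.504, 4.33, 9.98 and 7.16 CPM in MKs alone and at 166, 211, 253 and 240 CPM in the cocultures. *Lipa*, the lysosomal acid lipase that frees cholesterol from LDL esters, was measured at 146, 139, 135 and 113 CPM in MKs alone and at 430.5, 551, 256 and 317 CPM in the cocultures. *Npc2*, which hands cholesterol to NPC1 in the lysosome, was measured at 107, 144, 136.5 and 131 CPM and at 258, 273.5, 536 and 290 CPM. In all 3 genes every coculture was above every library of MKs alone. The log2 differences were 4.91 (SE 0.32, adjusted p = 2.55e-05) for *Lrp1*, 1.55 (SE 0.26, adjusted p = 0.00311) for *Lipa* and 1.39 (SE 0.27, adjusted p = 0.00659) for *Npc2*. The same count of 3 was found without each library in turn, and without replicate 3 of the cocultures the log2 differences were 4.81, 1.68 and 1.06. These 3 are also expressed in macrophages and stromal cells, whose marker sums were higher in the same libraries, and the part of those cells was not tested.

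**Figure D4:**
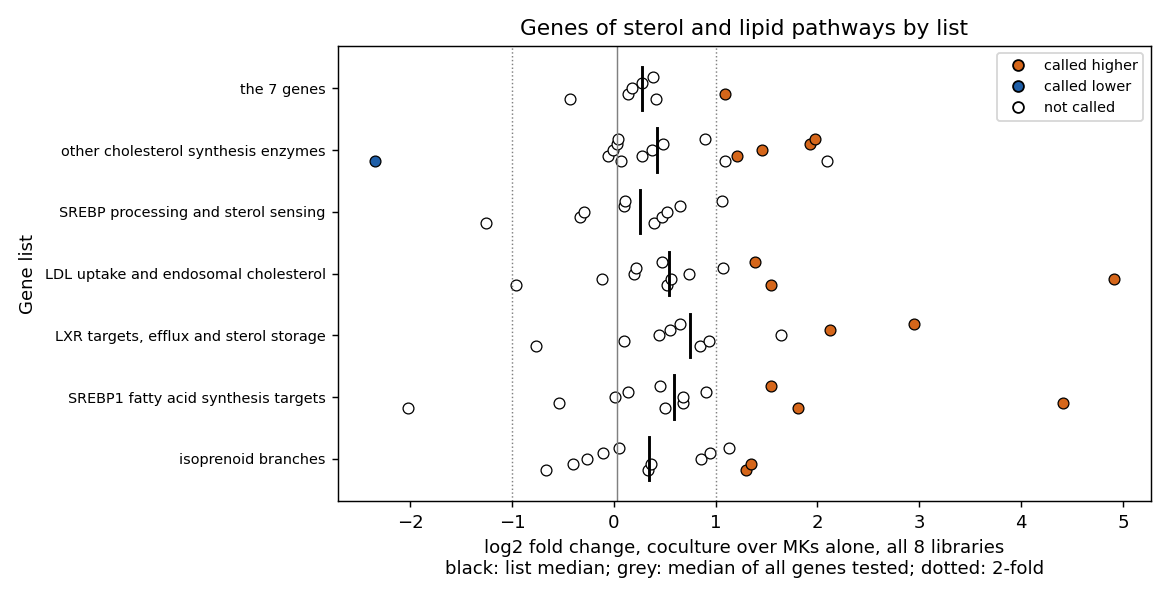
Log2 difference of cocultures over MKs alone from all 8 libraries for each tested gene of 7 lists (1 per row), with called genes filled, the list median as a black bar, the median of all genes tested as a grey line and dotted lines at a 2-fold change. The 7 genes have 1 called gene, the other cholesterol enzymes 4 higher and 1 lower, and sterol sensing none in edgeR.

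Lists around the pathway were read in the same way, beside 13.2% of all genes called higher and 7.31% called lower. Without replicate 3 of the cocultures these shares were 20.6% and 15.4%. DESeq2 called 10.7% of all genes lower, and 14.5% were lower at an unadjusted p under 0.05 in edgeR. Among LXR targets, efflux and storage genes, 2 of 10 rose and 0 fell (median log2 difference 0.75), with 0 lower at an unadjusted p under 0.05 and in DESeq2, and 4 of 11 rose without replicate 3 of the cocultures. *Plin2*, which coats lipid droplets, was measured at 103, 150, 144 and 124 CPM in MKs alone and at 339, 338, 1114 and 471 CPM in the cocultures (log2 difference 2.12, SE 0.41, adjusted p = 0.00635). *Nr1h3*, the receptor LXR alpha, was low in MKs alone at 0.221 to 0.928 CPM, around the level of 3 counts, and was at 1.99 to 8.68 CPM in the cocultures (log2 difference 2.95, SE 0.71, adjusted p = 0.0174). Both passed without replicate 3 of the cocultures, at 1.53 for *Plin2* and 2.48 for *Nr1h3*. Of the fatty acid synthesis genes under SREBP1, 3 of 12 rose and 0 fell (median 0.59), with 2 lower at an unadjusted p under 0.05 and 1 lower in DESeq2 and without replicate 3 of the cocultures. *Fasn*, fatty acid synthase, averaged 33.8 and 98.9 CPM (log2 difference 1.55, SE 0.25, adjusted p = 0.00258). *Scd2*, a desaturase, averaged 95.2 and 335 CPM (log2 difference 1.81, adjusted p = 0.0206), and *Me1*, malic enzyme, 5.83 and 124 CPM (log2 difference 4.41, adjusted p = 7.58e-05). With replicate 3 of the cocultures left out 4 of 12 rose, and these 3 differed by 1.58, 2.08 and 4.62.

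The isoprenoid branches that draw on the product of FDPS had 2 of 12 genes higher and 0 lower (median log2 difference 0.35). At an unadjusted p under 0.05, 1 was lower, and 0 in DESeq2. Among all genes, 13.2% were called higher and 7.31% lower, so 2 of 12 was close to that background. Without replicate 3 of the cocultures, 20.6% of all genes were called higher. *Nus1*, a subunit of the enzyme that builds dolichol, was measured at 93.4, 51.2, 55.8 and 56.0 CPM in MKs alone and at 176, 164, 171 and 121 CPM in the cocultures. The *Nus1* groups did not overlap, replicate 3 of the cocultures was level with replicates 1 and 2, and the log2 difference was 1.30 (SE 0.25, adjusted p = 0.00624). *Dhdds*, the other subunit of the dolichol enzyme, went the other way, averaging 43.5 and 27.4 CPM (log2 difference -0.67, adjusted p = 0.113). It was the 1 gene lower at an unadjusted p under 0.05, and is named after its values were seen. *Rabggtb*, a subunit of the enzyme that prenylates Rab proteins, averaged 14.4 and 36.6 CPM (log2 difference 1.35, SE 0.37, adjusted p = 0.0292). Leaving out replicate 3 of the cocultures, 2 of 12 again rose, with 1.25 for *Nus1* and 1.07 for *Rabggtb*. The count of 2 fell to 1 without any of the 4 libraries of MKs alone or without coculture replicate 1 or 4.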

How the data were processed

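Bulk RNA-Seq was performed by the authors on murine cells, with 4 libraries of MKs cultured alone and 4 of MKs cultured with MSCs. The authors deposited raw counts per gene, made per the study's methods from paired-end low-input SMART-Seq HT libraries, where reads were filtered by fastp and assigned to mm10 transcripts by kallisto. How transcripts were summed to genes is not given in the sources used here, nor are the batches of the authors' own model, so no batch term could be fitted. Groups and replicate numbers came from the labels, and 0 columns of the table were unmatched.

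Counts were tested in edgeR 4.0.16 (R 4.3.3) with TMM factors, filterByExpr, robust quasi-likelihood fits and all 8 libraries, without covariates, and p-values were adjusted by Benjamini-Hochberg over all genes tested. Calls used the study's cutoffs, with a mean of at least 1 CPM in place of TPM. DESeq2 1.42.0, other scalings, filters and thresholds, the replicate number as a block, and leaving out each library were the alternatives. Scripts were tested on simulated data. The 7 genes, the gene lists and the rules were chosen with earlier results of these data known. Genes named are the 7 members, up to 3 called genes with the largest absolute log2 difference per list, the 5 genes most like the members (1 is not reported here) and, in every marker list, the gene of highest level. Others are marked as chosen after their values were seen. Positions and exon lengths came from GENCODE vM21. Reads carry no molecular identifiers, so intervals on counts cover counting error only.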

Additional observations from a re-analysis of the deposited data

How the results depend on the processing

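Of the log2 differences of the 7 genes, 108 kept their direction and side of the threshold over the alternatives, 9 lost the call and 9 reversed. All 9 losses were of *Fdps*, whose log2 difference stayed between 0.92 and 1.61. The number of the 7 genes called fell from 1 to 0 with at least 10 counts in every library, where *Fdps* was at 0.95, and under glmTreat. It ran from 0 to 1 when each library was left out, and the median log2 difference of the 7 from 0.06 to 0.53. *Insig1* then ran from -0.20 to 0.52, reversed without coculture replicate 1 (-0.07) or 2, and *Idi1* from -0.046 to 0.44, reversed without the same libraries (-0.030 without coculture replicate 2). The number of all genes called was 2401, with 1121 under glmTreat, 4420 without coculture replicate 3, and a range of 1634 to 4420 when each library was left out. Scaling to MK and platelet markers called 2549 higher and 484 lower, in place of 1544 and 857, moved the median log2 difference of all genes to 0.51 and that of the 7 genes to 0.72.

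Same-numbered libraries correlated at 0.37, 0.02, 0.15 and 0.03 in their deviations from the group means. Libraries of different numbers correlated at -0.28 to 0.10. The labels name no pairs, so the main fit used none, but these few values cannot exclude pairing. With the replicate number as a block, *Insig1* reversed to -0.30 in edgeR and -0.34 in DESeq2, *Sqle* to -0.10 and -0.13, and *Idi1* to -0.015 in DESeq2. The number of the 7 genes called was 1 in both, all genes called were 1669 in edgeR and 3171 in DESeq2, and the median of the 7 was 0.01 and -0.015. The block without coculture replicate 3, chosen after seeing the data, called 4494 genes and 0 of the 7, with *Fdps* at 0.94 (adjusted p = 3.62e-05).

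For the lists in the order of the report (other enzymes, sterol sensing, LDL uptake, LXR targets, fatty acid synthesis, isoprenoid branches), the numbers higher were 0, 0, 1, 1, 1 and 0 under glmTreat and 5, 1, 5, 5, 5 and 3 with scaling to the markers. They were 3, 0, 3, 1, 2 and 1 with the block in edgeR, and 5, 2, 3, 4, 3 and 2 with the block and no coculture replicate 3. Of all genes, 21.7% were called higher with scaling to the markers, 9.35% with the block, and 21.2% with the block and no coculture replicate 3. When each library was left out the numbers higher ran from 1 to 5, 0 to 1, 3 to 3, 2 to 4, 2 to 4 and 1 to 2. Of the fatty acid synthesis genes 1 was called lower in DESeq2, with and without the block, with the block and no coculture replicate 3, and in a range of 0 to 1 when each library was left out. The cause of these differences was not tested. Counts near the level of 3 limit *Nr1h3* in MKs alone.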
